A study of Homo sapiens with 24 samples.

Results

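The 10 genes described here, DUSP4, DUSP5, DUSP6, SPRY2, SPRY4, SPRED1, SPRED2, ETV4, ETV5 and PHLDA1, are known transcriptional targets of the ERK branch of MAPK signaling, and they were taken as a named set of ERK feedback and output genes. They are 10 of the 25992 gene symbols on the array. They were measured with 12 of 34127 probes, and 11 of these probes, at least 1 for each gene, were bright enough to be tested. The cells were A549 and H1975, both established human lung adenocarcinoma lines, each exposed for 6 h or for 24 h to Pirfenidone, an anti-fibrotic drug, at 0.75 mg/ml, or to the same volume of PBS, its solvent. This gave 8 groups, each with 3 samples on 3 one-color Agilent arrays, 24 arrays in all. H1975 carries activating EGFR mutations, and each line is a single example of its kind. Nothing in the labels says that the 3 samples of a group came from separate cultures, so p-values measure only the spread between these samples, which may be technical.

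ERK is the last kinase of the cascade that runs from growth factor receptors through RAS, RAF and MEK. Active ERK induces genes whose products act back on the pathway. DUSP proteins of this group are phosphatases that remove the activating phosphates from MAP kinases, Sprouty and SPRED proteins dampen signaling at the level of RAS and RAF, and ETV4 and ETV5 are ETS family transcription factors that carry the output of the pathway into the nucleus. In lung cancer cells driven by mutant EGFR, transcripts of such genes are commonly used as a readout of ERK output. The arrays measured RNA only, and phosphorylated ERK was not analysed here.

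All values below are log2 signals relative to the 75th percentile of the same array, so that a level of 0 is the brightness of that percentile and a difference of 1 is a 2-fold difference. A level can be compared between samples for 1 probe, not between probes of different genes. Where a gene has several probes, the brightest was used. The arrays fall into 4 runs, which are arrays whose files carry the same date, with A549 in runs 1, 2 and 3 and H1975 in runs 1, 3 and 4. Each run held 1 array of every group of its lines, and per-sample values are given in the order of these runs. On each array 62.7% to 69.5% of all probes were well above background, and none was saturated. Each of the 24 arrays had all 6 epithelial markers (EPCAM, KRT7, KRT8, KRT18, KRT19 and CDH1) well above background. Of 10 markers of other cell types, the fibroblast gene DCN was well above background on 0 arrays and the T cell gene CD3E on 1, whereas PECAM1 and VWF were well above background only in H1975 and LUM only in A549. The A549 arrays of run 1 at 24 h stood apart in 1 respect. The Pirfenidone and the PBS array deviated from their group means in opposite directions, with a correlation of -0.25. The correlation was 0.46 in run 2 and 0.04 in run 3 of the same comparison. Within the runs of the other drug comparisons it lay between 0.60 and 0.88. Leaving out run 1 thus does not leave closely paired arrays in A549 at 24 h. All these correlations were taken over the probes well above background on all 24 arrays. Results that rest on these 24 h arrays of run 1 are also given without them.

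DUSP6, a cytoplasmic phosphatase selective for ERK, was the only member that passed in a comparison of Pirfenidone with PBS. Because the results turn on DUSP6, the 250 bases before its annotated start are shown, from RefSeq on GRCh38.p14, chr12:89352502-89352751, minus strand. The capitals mark the 6 matches on either strand to GGAA, the core of the sites that ETS factors such as ETV4 and ETV5 bind.
DUSP6: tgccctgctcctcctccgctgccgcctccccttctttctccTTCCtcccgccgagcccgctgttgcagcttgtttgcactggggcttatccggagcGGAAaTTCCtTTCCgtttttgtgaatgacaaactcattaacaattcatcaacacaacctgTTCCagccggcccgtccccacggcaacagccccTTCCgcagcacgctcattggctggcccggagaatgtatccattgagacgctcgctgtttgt
The core of 4 letters is common, and 92.74% of the 35116 promoter windows of this length in the same table hold it. Searched on both strands, the longer ETS site CCGGAA (in 14.53% of windows, and containing the core), the CRE site TGACGTCA (1.646%) and the AP-1 site TGANTCA (6.573%) had 0 matches in the DUSP6 window. The table held promoters of 6 of the 10 genes, and among the others CCGGAA had 1 match in the windows of SPRY2 and 1 in that of PHLDA1. The CRE and AP-1 letters had 0 matches in the windows of all 6. These matches describe the letters of the window and no binding was measured.

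In H1975 cells at 24 h, DUSP6 rose with Pirfenidone. Its levels were -0.81, -0.17 and -0.02 on the 3 PBS arrays and 1.02, 1.26 and 1.35 on the 3 Pirfenidone arrays. The highest PBS array lay below the lowest Pirfenidone array, and the groups did not overlap. As RNA came from whole cultures, more DUSP6 RNA per cell and a larger share of cells expressing it cannot be told apart. The difference was 1.54 on the log2 scale (SE 0.299, 95% confidence interval 0.915 to 2.17), a 2.91-fold higher signal, with a limma adjusted p of 0.00752. Within the runs it was 1.82 in run 1, 1.44 in run 3 and 1.37 in run 4. The adjusted p was 0.00355 with run as a block. With the slide as a random block the difference was 1.505, whereas the DUSP6 differences at 6 h and in A549 did not move. Drug and slide were thus not fully balanced in H1975 at 24 h. DUSP6 no longer passed with Holm adjustment in place of Benjamini-Hochberg (adjusted p = 1), nor in an unmoderated test paired by run after adjustment over all probes (adjusted p = 0.142). The probe lies at chr12:89742144-89742203 on the minus strand of hg19, as the array files give it.

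**Figure D1:**
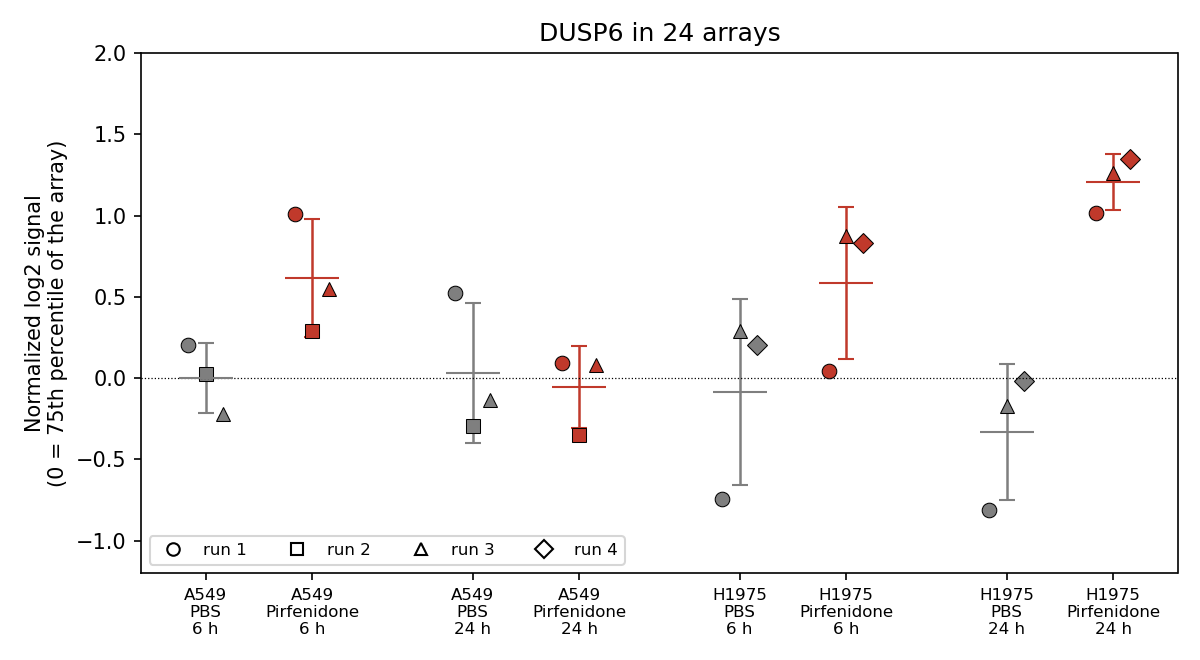
Normalized log2 signal of DUSP6 (y axis, 0 is the 75th percentile of the array) on each of the 24 arrays, by cell line, treatment and time (x axis). Points are single arrays with their shape showing the run, horizontal bars are group means and vertical bars are SD with n = 3. The 3 H1975 Pirfenidone arrays at 24 h lie between 1.02 and 1.35, above the H1975 PBS arrays, whereas the A549 groups at 24 h overlap.

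At 6 h in H1975, DUSP6 levels were -0.74, 0.29 and 0.20 with PBS and 0.04, 0.88 and 0.83 with Pirfenidone. The Pirfenidone array was higher in each run, by 0.79, 0.59 and 0.63, but the groups overlapped because both run 1 arrays were low. The difference of 0.67 (SE 0.299) did not pass, with a limma adjusted p of 0.402 (0.217 with run as a block). With the slide as a random block the adjusted p was 0.0369, but the difference was under 2-fold and did not pass. In A549 at 6 h the levels were 0.20, 0.03 and -0.22 with PBS and 1.01, 0.29 and 0.55 with Pirfenidone. These groups did not overlap, and the difference of 0.61 was close in size to that in H1975. It did not pass either (limma adjusted p = 0.855, 0.468 with run as a block and 0.116 with the slide as a random block). In A549 at 24 h the levels were 0.52, -0.29 and -0.13 with PBS and 0.10, -0.35 and 0.08 with Pirfenidone. The groups overlapped, and the difference was -0.09 (95% confidence interval -0.715 to 0.539), or 0.08 without the arrays of run 1.

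The DUSP6 difference at 24 h was thus 1.63 larger in H1975 than in A549 (SE 0.423, 95% confidence interval 0.743 to 2.52). Tested as an interaction over all probes this did not pass, with a limma adjusted p of 0.114. Among the alternatives run it passed with the slide as a random block (1.59, adjusted p = 0.00536) and in no other. Without the A549 arrays of run 1 it was 1.46 (adjusted p = 0.381). At 6 h the difference between the lines was 0.05. The drug change at 24 h minus that at 6 h was 0.87 in H1975 and -0.70 in A549, and neither passed (adjusted p = 0.866 and 0.9999).

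Over the 10 genes, 1 passed in H1975 at 24 h, where 1.89% of all 23827 tested probes passed. In the other 3 drug comparisons 0 members passed in limma. Of all probes, 0.176% passed in A549 at 6 h and 0.0126% at 24 h, and the share was 0.491% for H1975 cells at 6 h. At an unadjusted p below 0.05 the members numbered 4 in H1975 at 24 h, where 22.0% of all probes reached it. They numbered 1 (ETV5) in A549 at 6 h (6.01% of all probes), 0 in A549 at 24 h (0.953%) and 1 (DUSP6) in H1975 at 6 h (11.0%). The median change of the members in H1975 at 24 h was 0.49 against 0.02 over all probes tested, and it was 0.15 against -0.01 in A549 at 6 h. For A549 cells at 24 h it was 0.00 against -0.02, or 0.18 against -0.03 without the arrays of run 1, and in H1975 at 6 h -0.02 against 0.05. In H1975 at 24 h, the members' groups did not overlap for 6 genes: DUSP5, DUSP6, SPRED1, SPRED2 and ETV5, which were higher with Pirfenidone, and ETV4, which was lower. Of all probes, 31.9% showed no overlap there. In A549 at 6 h it was 2 members, DUSP6 and ETV5, where 15.3% of all probes showed none.
The markers of other cell types did not separate these groups. In H1975 at 24 h the log2 of their summed signal ranged from -0.24 to 0.75 with PBS and from -0.84 to 0.28 with Pirfenidone. For the epithelial markers it ranged from 8.42 to 8.99 and from 8.56 to 8.90. Of 6 epithelial and 7 other markers tested, 0 passed in the 4 drug comparisons, and at an unadjusted p below 0.05 it was 1 of the 13, in H1975 at 24 h.

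**Figure D2:**
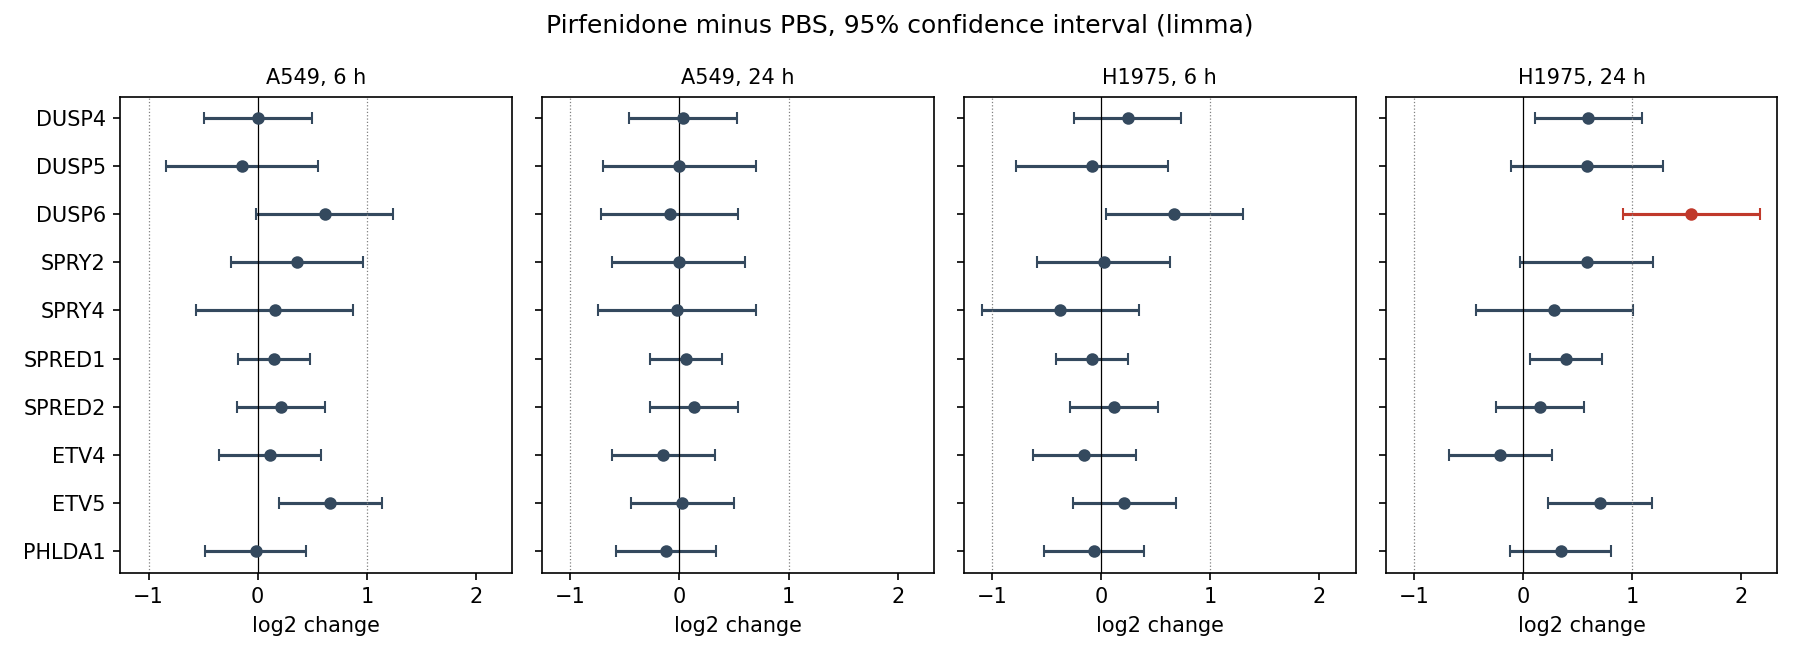
Log2 change with Pirfenidone relative to PBS (x axis) for the 10 genes (y axis) in the 4 comparisons, with 95% confidence intervals from limma and n = 3 arrays per group. Dotted lines mark the 2-fold limit, and the red point, DUSP6 in H1975 at 24 h at 1.54, is the one that passed.

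Counted by run, 9 of the 10 genes were higher with Pirfenidone in all 3 runs in H1975 at 24 h, a pattern shown by 34.6% of all probes. ETV4 was the exception, lower in all 3 runs. In A549 at 6 h the count was 7 (23.2% of all probes), in H1975 at 6 h it was 3 (31.8%), namely DUSP4, DUSP6 and ETV5, and in A549 at 24 h it was 0 (3.1%). The last count rests on run 1: over runs 2 and 3 alone, 6 members were higher in A549 at 24 h, against 30.1% of all probes. The arrays of a comparison are shared by all genes, so the genes are not independent observations of the drug.

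**Figure D3:**
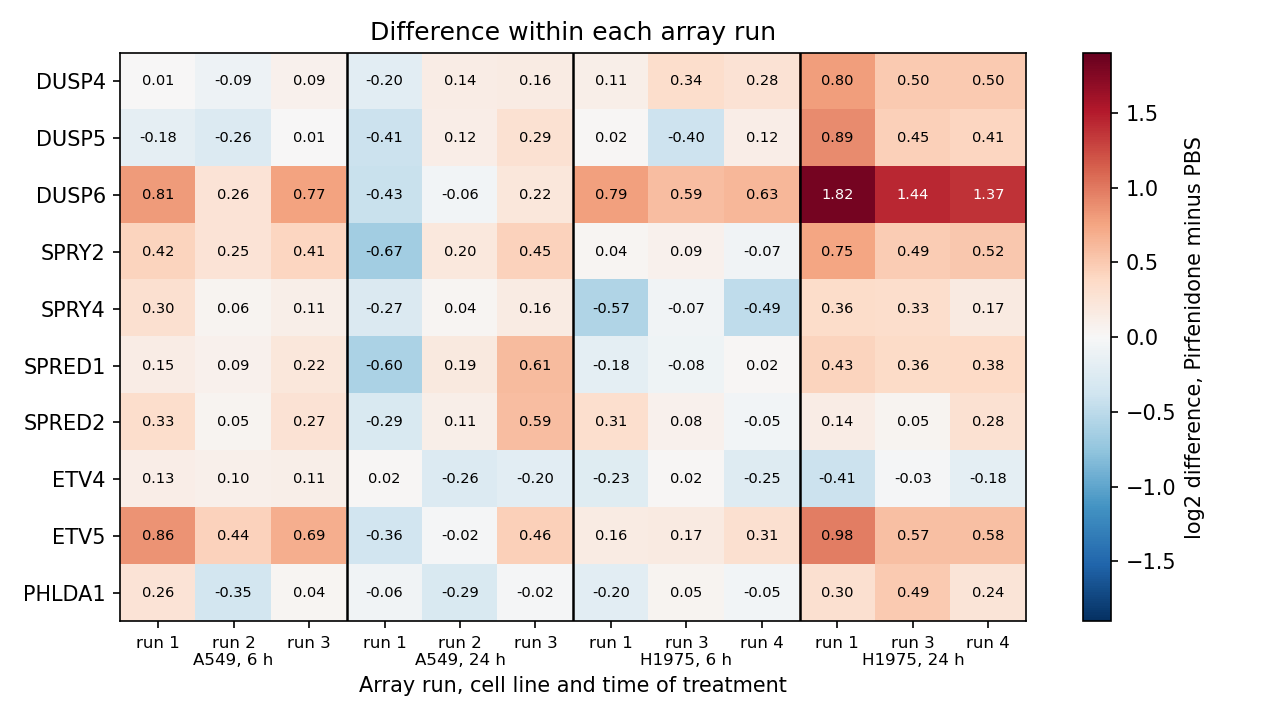
Log2 difference between the Pirfenidone and the PBS array of the same run (color and printed value), for the 10 genes (rows) and the 3 runs of each comparison (columns). The H1975 columns at 24 h are positive in all rows but ETV4, and the A549 column of run 1 at 24 h is negative in all rows but ETV4.

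Among the other phosphatases, DUSP4 and DUSP5, which act on MAP kinases in the nucleus, did not pass with the drug. DUSP4 levels in H1975 at 24 h were 0.49, 1.31 and 1.32 with PBS and 1.29, 1.80 and 1.82 with Pirfenidone. The run 1 array with drug lay just under the 2 highest PBS arrays, so the groups overlapped, although each run differed in the same direction, by 0.80, 0.50 and 0.50. The difference was 0.60 (SE 0.235, limma adjusted p = 0.135). With the slide as a random block the adjusted p was 0.0111, and the difference stayed under 2-fold. In A549 the DUSP4 differences were 0.00 at 6 h and 0.03 at 24 h (0.15 without the arrays of run 1). DUSP5 in H1975 at 24 h was at -1.08, -0.95 and -0.76 with PBS and at -0.19, -0.50 and -0.34 with Pirfenidone. These groups did not overlap, and the difference of 0.59 (SE 0.332) did not pass (adjusted p = 0.323). With the slide as a random block it was 0.65 (limma adjusted p = 0.0388), still under 2-fold. In the other 3 drug comparisons the DUSP5 differences lay between -0.14 and 0.00, and the one in A549 at 24 h was 0.20 without the arrays of run 1.

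The Sprouty and SPRED genes encode inhibitors of RAS to RAF signaling. SPRY2 in H1975 at 24 h was at -1.32, -0.55 and -0.78 with PBS and at -0.58, -0.06 and -0.26 with Pirfenidone. Each run was higher with the drug, but the groups overlapped, and the difference of 0.58 (SE 0.289) did not pass (limma adjusted p = 0.248). SPRED1 in the same groups was at -1.88, -1.98 and -1.88 with PBS and at -1.45, -1.61 and -1.5 with Pirfenidone. Its groups did not overlap, and the difference of 0.39 (SE 0.157) did not pass (adjusted p = 0.148). SPRED2 differed by 0.16 and SPRY4 by 0.29 there, with adjusted p of 0.714 and 0.709. SPRY4 has a second, dimmer probe, well above background on 22 of 24 arrays, which disagreed in direction at -0.61 (adjusted p = 0.271). The direction of SPRY4 with the drug is therefore not settled by these arrays.

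ETV5 had the second largest difference with the drug among the members in H1975 at 24 h. Its levels there were -3.50, -3.03 and -3.02 with PBS and -2.53, -2.46 and -2.44 with Pirfenidone. The groups did not overlap, with a gap of about the spread of the PBS arrays. The difference was 0.71 (SE 0.226), a 1.63-fold higher signal, below the 2-fold limit and with a limma adjusted p of 0.0677. The adjusted p was 0.00496 with run as a block. In A549 at 6 h ETV5 was at -2.59, -2.51 and -2.14 with PBS and at -1.73, -2.08 and -1.45 with Pirfenidone. These groups did not overlap either, and the difference was 0.66 (SE 0.226, adjusted p = 0.443, and 0.0283 with run as a block), again under 2-fold. ETV5 differed by 0.02 in A549 at 24 h, or 0.22 without the arrays of run 1, and by 0.21 in H1975 at 6 h.

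ETV4, the paralog of ETV5, passed in no drug comparison. In H1975 at 24 h ETV4 was at -2.04, -2.42 and -2.39 with PBS and at -2.45, -2.45 and -2.57 with Pirfenidone. The Pirfenidone arrays were the lower ones, narrowly so in run 3, and the difference of -0.21 (SE 0.225) did not pass (limma adjusted p = 0.668). PHLDA1, a pleckstrin homology-like protein induced by growth factors, differed by 0.35 in H1975 at 24 h (adjusted p = 0.388) and by -0.12 to -0.02 in the other 3 drug comparisons (-0.16 in A549 at 24 h without the arrays of run 1). Over all 10 genes the differences in A549 at 24 h lay between -0.15 and 0.14, and between -0.23 and 0.40 without the arrays of run 1, and 0 passed either way. A second PHLDA1 probe was well above background on 1 of 24 arrays and was not tested.

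Without the drug the lines differed in several members. Of the 10 genes, 1 passed at 6 h and 2 at 24 h, all lower in H1975, where 32.4% of all probes passed at 6 h and 32.9% at 24 h. ETV4 in PBS at 24 h was at -0.46, -0.83 and -0.90 in A549 and at -2.04, -2.42 and -2.39 in H1975. The lines did not overlap at either time. The difference was -1.55 at 24 h (SE 0.225, limma adjusted p = 7.8e-06) and -1.28 at 6 h (adjusted p = 7.3e-05). In the runs that held both lines it was -1.57 and -1.52 at 24 h and -1.03 and -1.18 at 6 h.

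DUSP4 in PBS at 24 h was at 2.41, 1.84 and 1.97 in A549 and at 0.49, 1.31 and 1.32 in H1975. All 3 H1975 arrays lay below all A549 arrays, and run 1 lay lowest. The difference was -1.04 (SE 0.235, limma adjusted p = 0.000859), just past the 2-fold limit, and it was -1.92 in run 1 and -0.66 in run 3. Without the H1975 array of run 1 it was -0.76, and without the A549 array of run 1 -0.87, and in either case it no longer reached 2-fold. At 6 h it was -0.75 (adjusted p = 0.00968), under 2-fold. Each slide held 1 line only, so slide and line cannot be told apart. Among the markers of other cell types, PECAM1 and VWF were higher in H1975 and LUM was lower, and each passed at both times. The log2 of the summed signal of the 10 in PBS ranged from -0.57 to 0.28 in A549 and from -0.59 to 0.75 in H1975. CD14 was the brightest of the 10, at -0.35 and -0.05 in A549 and -0.71 and -0.19 in H1975 at 6 h and 24 h. The part of these markers in the line differences was not tested.

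Lower in H1975 by less than 2-fold, with an adjusted p of 0.05 or less at both times, were SPRED1 (-0.49 and -0.61), SPRED2 (-0.72 and -0.50) and ETV5 (-0.59 and -0.90). With run as a block ETV5 was at -1.08 at 24 h (limma adjusted p = 4.7e-06) and passed, which made 3 members at 24 h. The share of 32.9% of all probes at 24 h belongs to the fit without this block. Without the A549 arrays of run 1, SPRED2 at 24 h was at -0.45 (adjusted p = 0.0718). With ETV4 and DUSP4, this makes 5 of the 10 genes at each time, where 58.6% of all probes at 6 h and 59.2% at 24 h had an adjusted p of 0.05 or less. The lines did not overlap for the same 5 genes at both times, as for 66.3% and 63.7% of all probes, so the members differed between the lines about as often as any probe did. For DUSP6 the line difference was -0.08 at 6 h and -0.36 at 24 h, and for SPRY2 it was 0.24 and 0.09. The adjusted p was 0.308 or more for both genes, and their limits span 0. Under the run block DUSP6 lay at -0.32 and -0.60 (limma adjusted p = 0.335 and 0.0752) and SPRY2 at 0.05 and -0.10, and neither passed. The median over the members was -0.42 at 6 h and -0.53 at 24 h, against 0.06 and 0.08 over all probes.

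**Figure D4:**
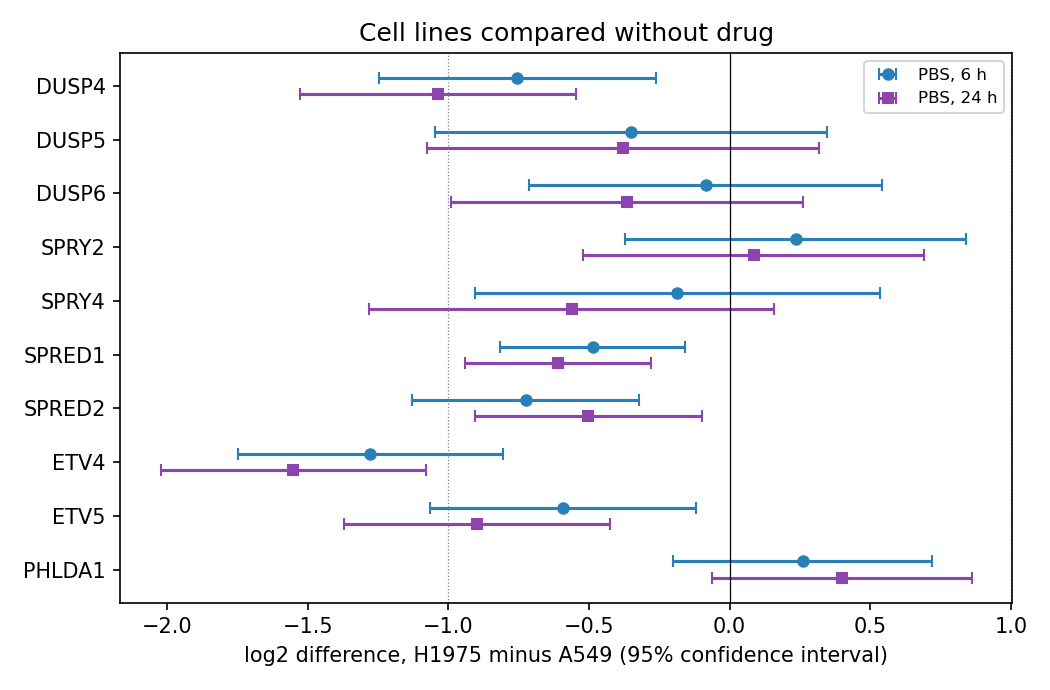
Log2 difference between H1975 and A549 in PBS (x axis) for the 10 genes (y axis), at 6 h and 24 h, with 95% confidence intervals from limma and n = 3 arrays per group. Dotted lines mark a 2-fold difference. ETV4 lies lowest at both times, at -1.28 and -1.55, and the intervals of DUSP6 and SPRY2 include 0.

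No member passed between 6 h and 24 h in PBS in limma: 0 of 10 in A549, where 0.109% of all probes passed, and 0 of 10 in H1975, where 0.315% passed. At an unadjusted p below 0.05 the members also numbered 0 in both lines, against 8.49% of all probes in A549 and 10.6% in H1975. The differences lay between -0.22 and 0.13 in A549, or between -0.31 and 0.02 without the arrays of run 1, and between -0.42 and 0.23 in H1975. In the limma tests of whether the drug change differed between lines or times, 0 members passed: between lines at 6 h (0.0336% of all probes passed), between lines at 24 h (0.193%), between times in A549 (0.0294%) and between times in H1975 (0.0042%). At an unadjusted p below 0.05, where 2.63%, 12.2%, 3.04% and 5.86% of all probes lay, the members numbered 0, 2, 0 and 1, the 2 being DUSP6 and ETV5 and the 1 being SPRED1.

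The remaining genes of the pathway were read from lists of relatives of the 10 genes (14 genes, 12 tested), of the cascade from receptor to ERK (26 genes, all tested) and of other ERK output genes (18 genes, all tested). In the 4 drug comparisons, 0 genes of these lists passed in limma. At an unadjusted p below 0.05 the relatives numbered 0 and 0 in A549 and 3 and 4 in H1975 at 6 h and 24 h, the cascade genes 1, 1, 3 and 5, and the output genes 1, 0, 4 and 7. The shares of all probes were 6.01% and 0.953% in A549 and 11.0% and 22.0% in H1975. In H1975 at 24 h the cascade share, 19.2%, lay below that of all probes, and those of the relatives, 33.3%, and of the output genes, 38.9%, lay above it. The median change there was 0.08 for the relatives, 0.03 for the cascade and 0.29 for the output genes, beside 0.02 for all probes. At 6 h in H1975 the output median was -0.16, beside 0.05 for all probes. FOSL1, an AP-1 factor among the output genes, was on the lower side, at -1.13 at 6 h and -0.92 at 24 h in H1975 (limma adjusted p = 0.108 and 0.0970). EGFR, the receptor that is mutant in H1975, differed by 0.54 with the drug in H1975 at 24 h (adjusted p = 0.0800), and MAPK3 (ERK1) by -0.01. Below the 2-fold limit but at adjusted p under 0.05 were KSR1, a scaffold of the cascade, at 0.95 and 0.69 in H1975 at 6 h and 24 h, and DUSP9, another ERK phosphatase, at -0.66 in H1975 at 24 h. FOSL1, KSR1 and DUSP9 were chosen here after their values were seen.

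Between the lines in PBS, where 32.4% of all probes passed at 6 h and 32.9% at 24 h, 6 and 7 of the 12 relatives passed, 7 and 8 of the 26 cascade genes (26.9% and 30.8%, below the share of all probes) and 8 and 9 of the 18 output genes. Among the relatives 4 were higher in H1975 at each time and 2 and 3 lower. DUSP2 was higher by 4.83 and 4.41, though at 24 h it was well above background on only 2 of the 3 A549 arrays. Higher too were DUSP10 by 4.08 and 4.18 and DUSP9 by 2.58 and 2.39, and DUSP1 was lower, at -3.05 and -3.48, as was PHLDA3 at -2.76 and -2.14. DUSP16 passed at 24 h, at -1.14. Thus phosphatases on both sides of the difference were found, whereas the members that passed were all lower in H1975.

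In the cascade, 4 genes were higher in H1975 at each time and 3 and 4 lower. RASA1, a RAS inactivator, was higher by 1.40 and 1.12, BRAF by 1.33 and 1.39, and GAB1, an adaptor, by 1.37 at 24 h, when it was well above background on only 1 of the 3 A549 arrays. At 6 h GAB1 was not well above background on any A549 array, and it was at least 2.18-fold higher in H1975 (limma adjusted p = 4.43e-05). EGFR was higher by 1.16 at 6 h, and by 0.93 at 24 h, under the limit. FGFR1 was lower, at -2.51 and -2.37, as were HRAS at -1.34 and -1.16 and SHC1 at -1.04 and -1.18. MAPK3 differed by 0.29 and 0.59 without passing.

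Of the output genes, 6 were higher in H1975 at each time and 2 and 3 lower. The early response factor EGR1 was higher by 2.84 and 3.97, EPHA4 by 2.46 and 2.10, and FOSL1 by 1.91 and 2.69. The EGFR ligands EREG, at -3.36 and -3.14, and AREG, at -2.90 and -2.74, were lower, and HMGA2 was lower at 24 h, at -1.03. The difference between the lines therefore ran both ways among ERK output genes.

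The genes whose pattern over the 24 arrays was most like that of DUSP6, after the mean of each line was taken out, were NUPR1, a stress-induced nuclear protein, with a Pearson r of 0.907, UNC5B, a netrin receptor, with 0.891, and TCP11L1 with 0.880, among 14602 genes compared. Among the members r was 0.833 for SPRY2, 0.807 for DUSP4, 0.799 for ETV5, 0.541 for SPRED1, 0.518 for SPRY4, 0.273 for PHLDA1, 0.130 for SPRED2, -0.013 for DUSP5 and -0.264 for ETV4. The points share arrays, runs and treatment, so r describes likeness on these arrays only. With the drug, NUPR1 differed by 1.43 at 6 h and 0.18 at 24 h in A549 cells, and by 1.70 and 1.85 at these times in H1975 cells, beside 0.61, -0.09, 0.67 and 1.54 for DUSP6.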

How the data were processed

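Conditions and replicate numbers came from the sample labels. The authors scanned the arrays and deposited Agilent Feature Extraction output, with an intensity per spot that is background-subtracted and not normalized between arrays. A further table deposited by the authors gives log2 values, in which each probe is centered on its median over the arrays. It has the log2 scale and direction of the scanner values. Its column medians lay between -0.163 and 0.156, and the sources used here do not give how the constant of each array was set. It was used as an alternative.

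Each processed signal was put on the log2 scale, and the 75th percentile of the array was subtracted. A probe's value is the mean of its spots that were not marked as outliers. Tests covered 23827 probes, those that in some group stood well above background on each of its 3 arrays. They were run with lmFit and eBayes of limma (version 3.58.1, R version 4.3.3), two-sided, as a single model over the 8 groups that left 16 residual degrees of freedom. To pass, a probe needed a fold change of at least 2 and an adjusted p (Benjamini-Hochberg) no higher than 0.05. The Westfall-Young adjustment of the study's methods was replaced, since 3 arrays against 3 allow no permutation p under 0.1. The steps were tested on simulated data. The number of arrays limits the precision of each value.

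The members and gene lists were chosen with earlier results of these data known. All 10 members are named, with other probes given where they disagree. From the lists, EGFR and MAPK3 are always named, and up to 3 passing genes in each direction for each list and comparison. Some genes that the rule names are not reported here, though they stay in the counts. The 3 genes outside the lists most like DUSP6 are named by Pearson r. A bound is the bright group's mean over the dim group's mean of the higher of its own signal and the lowest well above background signal per array. Symbols and hg19 probe positions are those of the array files. Exons and untranslated regions are not given, for want of an hg19 annotation here.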

Additional observations from a re-analysis of the deposited data

Results flagged for a closer look

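In 3 cases every run moved one way with Pirfenidone in one group and the opposite way in the other, and the limma interaction did not pass. The share of all probes with such a pattern was not counted. These cases are therefore listed only, and not read as a result about the members. SPRY4 at 6 h was higher in all 3 A549 runs and lower in all 3 H1975 runs, with a difference in change of -0.53 on the log2 scale, H1975 minus A549 (adjusted p = 0.9998). SPRY4 in H1975 was lower in all 3 runs at 6 h and higher in all 3 at 24 h, with a difference in change of 0.66 (adjusted p = 0.9996). The second SPRY4 probe showed neither pattern in every run. PHLDA1 at 24 h was lower in all 3 A549 runs and higher in all 3 H1975 runs, with a difference of 0.47 (adjusted p = 0.594). Groups of 3 arrays were not examined for single outlying arrays.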

How the results depend on the processing

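Of 2490 changes of single members recomputed under the alternatives, 2472 kept their side of the threshold, 10 came to pass and 8 no longer passed. No change that had passed turned its sign, and 156 that had not passed did, all with a size of 0.56 or less on the log2 scale. The number of members that passed in H1975 at 24 h was 0 with Holm adjustment, and 1 (DUSP6) in the other alternatives run, where its change was 1.3 to 1.7 and its adjusted p 0.000179 to 0.0499. This range leaves out a t-test paired by run, chosen here and not the moderated test of the study's methods, in which DUSP6 passed at an unadjusted p of 0.05 or less and not after Benjamini-Hochberg adjustment (adjusted p = 0.142). For the lines at 6 h the number was 5 with no fold-change limit and 0 with Holm. For the lines at 24 h it was 5 with no fold-change limit, 1 (ETV4) with Holm, with quantile normalization, with the slide as a block and without both A549 arrays of run 1, and 3 with run as a block, with ETV5 added at -1.08. Leaving out 1 array at a time gave 1 to 3. DUSP4 fell below the limit without the A549 PBS array of run 1 (-0.87) or the H1975 PBS array of run 1 (-0.76), and ETV5 passed without A549 PBS replicate 1 (-1.05). For the drug change between lines at 24 h the number was 1 (DUSP6) with the slide as a block. The number of members higher in every run in A549 at 24 h was 6 without the arrays of run 1, an alternative added after the data were seen.

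With the replicate number as a block, DUSP6 in H1975 at 24 h changed by 1.54 (adjusted p = 0.00861) and the number of members passing stayed at 1. Same-numbered arrays deviated together for A549 at 6 h and for H1975 at 24 h, but not for H1975 at 6 h (correlations of -0.52, 0.52 and -0.77), so the numbers do not pair all samples. Normexp correction moved the median of all probes in H1975 at 6 h from 0.05 to 0.29.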
